A study of Mus musculus with 6 samples.

Results

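The genes described here drive cells through DNA replication and mitosis, and their transcripts are widely read as a measure of how many cells of a tumour are cycling. The set was fixed by name as 44 genes, divided into 18 genes of G1 and S phase and 26 genes of G2 and mitosis. All probe sets annotated to a single gene symbol among them were taken, which gave 77 of 22626 probe sets and 43 of 12393 measured genes. Of these, 38 probe sets belonged to the 18 G1 and S phase genes and 39 to 25 of the G2 and mitotic genes, and Ccnb1 had no probe set of its own.

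The 6 mammary tumours came from adult F1 female mice whose one parent carried PyMT, the polyomavirus middle T antigen transgene, and whose other parent was AKR/J (3 AKR F1 tumours) or DBA/2J (3 DBA F1 tumours). Both crosses thus carried the transgene, and the labels name neither its promoter nor the strain of the PyMT parent. The comparison asks how transcript levels differ at baseline between the crosses. Each tumour was read on 1 Affymetrix array as log2 values, in which a step of 1 is a doubling. The titles carry a different identifier for each sample, but the labels do not say that the 3 samples of a cross were separate animals. The p-values thus reflect no more than the spread among these arrays, and how much of it lies between animals is not known. Differences are given as AKR minus DBA, and errors given with ± are SDs over 3 arrays.

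In G1, D-type and E-type cyclins activate kinases that release E2F factors from retinoblastoma family proteins, and E2F turns on the genes for origin licensing, nucleotide supply and the replication fork. Later, cyclins A and B with Cdk1 drive the cell into mitosis, Plk1 and the Aurora kinases build the spindle, the checkpoint kinases hold chromosomes until they are attached, and the anaphase-promoting complex ends mitosis. The transcripts of the later group depend on B-Myb (encoded by Mybl2) and Foxm1, which act with the MuvB complex at a promoter element called the CHR. CCAAT boxes are a further element of such promoters. PyMT mammary tumours are known as highly proliferative.

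The 2 groups of genes also differed in promoter letters. Promoters of 35 of the 43 measured genes were found in RefSeq's table for GRCm38.p6, each from 250 bases before to 50 bases after the gene's start. The CHR was searched as TTTGAA, the CCAAT box as CCAAT, and the E2F site as TTTCCCGC, TTTCGCGC, TTTGCCGC or TTTGGCGC, all on both strands. A gene was counted if any start listed for it had the letters. The CHR letters were present in 14 of 20 G2 and mitotic genes and 2 of 15 G1 and S phase genes, against 15.4% of the 9887 genes measured on the arrays with a promoter in the table. The E2F letters were present in 6 of 15 G1 and S phase genes (Cdc6, Cdt1, Mcm3, Mcm5, Mcm6 and Mcm7) and 1 of 20 G2 and mitotic genes (Cdk1), against 4.07% of all. The CCAAT box was in 17 of 20 and 9 of 15, against 42.3%. These are matches of letters, not sites shown to be bound, and no test was made.

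The stretches below are the 150 bases that end just before the start of 7 genes, with matches in capitals. Cdk1, Kif11 and Cdc20 show the mitotic arrangement of a CCAAT box upstream of a CHR close to the start, and Mcm6 and Cdc6 show E2F letters. Plk1 and Mybl2 are shown because they had the smallest p-values of all members at their brightest probe sets.
Cdk1 (GRCm38.p6, chr10:69352913-69353062, minus strand): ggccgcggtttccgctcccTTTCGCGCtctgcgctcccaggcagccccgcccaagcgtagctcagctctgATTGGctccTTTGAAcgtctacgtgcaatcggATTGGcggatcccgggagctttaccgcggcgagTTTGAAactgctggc
Kif11 (GRCm38.p6, chr19:37376232-37376381, plus strand): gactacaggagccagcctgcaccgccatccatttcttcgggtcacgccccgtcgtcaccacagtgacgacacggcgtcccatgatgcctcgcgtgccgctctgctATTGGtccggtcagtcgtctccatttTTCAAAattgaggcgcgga
Cdc20 (GRCm38.p6, chr4:118437344-118437493, minus strand): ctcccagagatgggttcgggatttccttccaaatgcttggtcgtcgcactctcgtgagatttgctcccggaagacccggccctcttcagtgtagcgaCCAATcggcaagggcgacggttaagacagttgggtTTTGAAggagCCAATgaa
Mcm6 (GRCm38.p6, chr1:128359706-128359855, minus strand): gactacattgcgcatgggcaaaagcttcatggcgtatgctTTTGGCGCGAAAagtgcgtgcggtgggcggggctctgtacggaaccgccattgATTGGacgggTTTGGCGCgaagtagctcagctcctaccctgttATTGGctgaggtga
Cdc6 (GRCm38.p6, chr11:98908001-98908150, plus strand): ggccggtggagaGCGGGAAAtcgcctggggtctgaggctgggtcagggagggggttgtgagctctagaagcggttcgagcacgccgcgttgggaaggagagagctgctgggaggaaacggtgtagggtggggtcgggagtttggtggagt
Plk1 (GRCm38.p6, chr7:122159285-122159434, plus strand): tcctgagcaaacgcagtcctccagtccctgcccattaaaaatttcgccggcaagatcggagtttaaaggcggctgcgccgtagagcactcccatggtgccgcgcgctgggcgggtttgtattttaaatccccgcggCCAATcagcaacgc
Mybl2 (GRCm38.p6, chr2:163054485-163054634, plus strand): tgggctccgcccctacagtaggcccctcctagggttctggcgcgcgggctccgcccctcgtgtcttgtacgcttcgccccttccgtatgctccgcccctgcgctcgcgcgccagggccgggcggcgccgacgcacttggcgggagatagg

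In Cdk1 the CHR letters began 15 and 71 bases before the start, in Cdc20 18 bases and in Kif11, on the other strand, 19 bases before it. In Mcm6 a pair of E2F matches on opposite strands overlapped, 110 and 106 bases before the start, and a further one lay at 47 bases. The CHR letters of the Plk1 window began at base 31 from the start of the gene, outside the stretch shown. Mybl2 had no match to any of the 3 motifs in its window, which says only that these letters are not there.

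Transcript levels of the cell cycle genes lay close together in the tumours of the 2 crosses. No member probe set passed an adjusted p of 0.05 (limma, Benjamini-Hochberg over all probe sets), a threshold that 0.0972% of all probe sets passed. At an unadjusted p under 0.05, 7 of 77 member probe sets lay higher in AKR F1 tumours, against 12.9% of all probe sets, and 1 lay higher in DBA F1 tumours, against 13.2%. Both member shares, 9.09% and 1.3%, were below the background as the values were deposited. The 3 arrays of a cross lay wholly above those of the other in 10 member probe sets for AKR (23.4% of all probe sets) and in 2 for DBA (15.8% of all). These were 3 and 1 of the 38 probe sets of G1 and S phase genes and 7 and 1 of the 39 probe sets of G2 and mitotic genes.

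At each gene's brightest probe set, the median difference was 0.15 for the 18 G1 and S phase genes and 0.04 for the 25 G2 and mitotic genes, against 0.05 for all 12393 genes. In all, 27 members had the higher mean in the AKR cross and 16 in the DBA cross, against 6787 and 5606 of all genes. After quantile normalization the split of the members was 36 to 7, after cyclic loess normalization 34 to 9, and without AKR replicate 1 it was 22 to 21. The absolute difference exceeded 0.5 in 4 of the 43 members (9.3%), compared with 19.9% of all genes. Of the 43 members, 39 had a 95% interval of the difference that lay within 1 log2 unit on both sides of 0. The 4 whose interval reached further were Ccnd1, Plk1, Mybl2 and Fzr1.

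**Figure D1:**
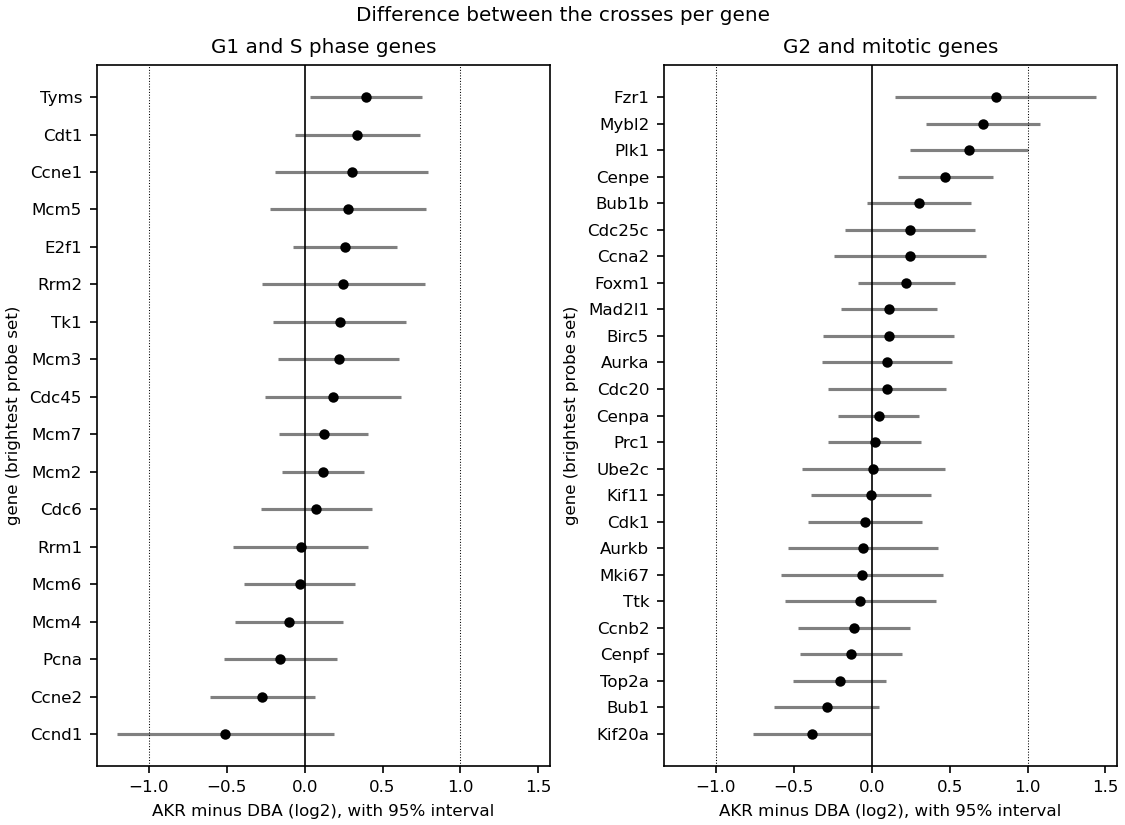
Difference in log2 level between AKR and DBA F1 tumours for each gene at its brightest probe set (points), with the 95% interval from limma (bars) and dotted lines at 1 log2 unit on either side; G1 and S phase genes left, G2 and mitotic genes right. Fzr1, Mybl2 and Plk1 lie furthest towards AKR, Ccnd1 furthest towards DBA, and most intervals span 0.

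The spread of the members was much like that of other genes, with a median residual SD of 0.20 over members and 0.21 over all genes. Over all probe sets, however, the difference moved with the level, from a median of 0.23 in the third level decile to -0.21 in the brightest. Members in the upper deciles did not lie at that lower line: in deciles 8, 9 and 10, where 25 of the 43 brightest member probe sets fell, their medians were 0.11, 0.02 and -0.02 against -0.14, -0.21 and -0.21 for all probe sets. Normalizations that remove such a trend raised the median of the G2 and mitotic genes to 0.18 (cyclic loess) and 0.21 (quantile), and that of the G1 and S phase genes to 0.20 and 0.23. With them 13 and 15 member probe sets passed an unadjusted p of 0.05, which is 16.9% and 19.5% of members against 23.2% and 22.5% of all probe sets, and none passed an adjusted p of 0.05. Their split was 10 towards AKR and 3 towards DBA after cyclic loess normalization, where 10.3% and 12.9% of all probe sets passed in these directions. It was 12 and 3 after quantile normalization, where 11.8% and 10.7% of all did. Of the 77 member probe sets, the share towards AKR was thus above that of all probe sets under both, and the share towards DBA below.

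**Figure D2:**
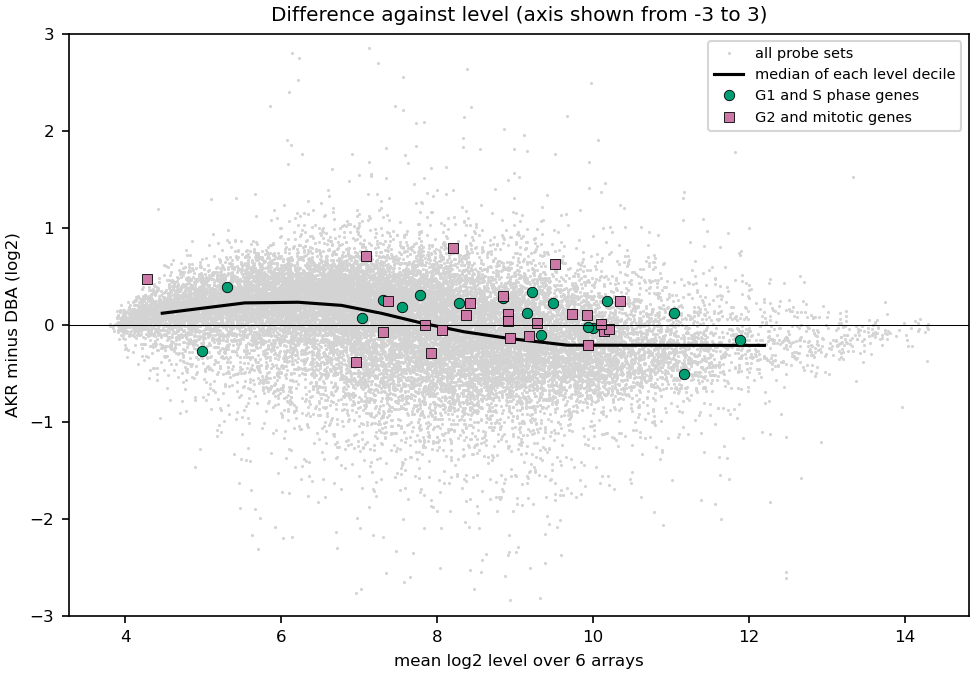
Difference between AKR and DBA F1 tumours (log2) against the mean log2 level over the 6 arrays, for all probe sets (grey) and for the brightest probe set of each G1 and S phase gene (circles) and G2 and mitotic gene (squares); the line joins the medians of the level deciles, and the vertical axis is limited to -3 to 3, which leaves out the largest differences. The line falls from 0.23 to -0.21, and most bright members lie near 0, above it.

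The classical proliferation markers Mki67 and Pcna overlapped between the crosses, and the sign of their small differences depended on the scaling. Mki67, which encodes the Ki-67 antigen that coats mitotic chromosomes, read 10.31, 9.88 and 10.15 in the AKR cross against 10.61, 9.89 and 10.02 in the DBA cross. The crosses overlapped, with DBA replicate 1 highest and both replicates 2 lowest. The Mki67 difference was -0.06 (95% interval -0.58 to 0.46, limma adjusted p = 0.853), and it changed sign under 6 of 14 alternatives. Pcna, the sliding clamp of the replication fork, read 12.03, 11.83 and 11.55 in the AKR cross against 12.02, 11.87 and 11.99 in the DBA cross, a difference of -0.16 (interval -0.52 to 0.20). AKR replicate 3 was lowest, and AKR replicate 1 and DBA replicate 1 were nearly equal. Top2a, the topoisomerase that untangles replicated chromosomes, read 9.99, 9.84 and 9.68 in the AKR cross against 10.10, 10.05 and 9.97 in the DBA cross, a difference of -0.21 (interval -0.51 to 0.09) that was 0.02 after quantile normalization. A dimmer Top2a probe set went the other way by 0.45, with AKR replicate 2 far above the rest at 7.26.

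Among the G1 cyclins and their partner factor, Ccnd1 had the widest spread. Cyclin D1, the Ccnd1 product, links growth signals to the cell cycle and is needed for tumours driven by some mammary oncogenes. Its brightest probe set read 10.78, 10.96 and 11.00 in the AKR cross against 10.73, 11.89 and 11.65 in the DBA cross. The AKR arrays lay within a narrow band, DBA replicate 1 lay just below it, and DBA replicates 2 and 3 stood above all others. The difference was -0.51 (interval -1.20 to 0.19, limma adjusted p = 0.278), and leaving out DBA replicate 1 or 2 gave -0.85 or -0.27. The other Ccnd1 probe sets read 10.12, 11.64 and 11.15, and 7.98, 9.77 and 9.44, in the DBA cross, with differences of -0.23 and 0.04, so all 3 probe sets put DBA replicate 1 lowest and DBA replicate 2 highest of the 6 arrays.

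Ccnd2, a second D-type cyclin gene that is not a member, was also high on the same arrays. Its brightest of 7 probe sets read 7.90, 7.85 and 7.77 in the AKR cross against 8.03, 11.73 and 10.25 in the DBA cross (difference -2.17, limma adjusted p = 0.174). The differences of the 7 probe sets ran from -2.51 to 0.20. The contractile markers of myoepithelial and smooth muscle cells (Acta2, Mylk, Myh11, Tagln and Cnn1) moved with both cyclins, and the other 3 listed markers of these cells did not. The log2 of the summed level of all 8 was 11.61 to 12.01 on the AKR arrays and 11.81 on DBA replicate 1, but 14.02 and 13.41 on DBA replicates 2 and 3. Acta2, smooth muscle actin, had the highest value in that sum (13.26 on DBA replicate 2), and without it the sums on DBA replicates 2 and 3 were 12.73 and 12.64, against 11.15 to 11.67 on the other arrays. The basal keratins went the other way on DBA replicate 2, where Krt5 and Krt14 both read 7.43, the lowest of the 6 arrays, with differences of 0.99 and 0.71. Oxtr differed by 0.17. The other probe set of Acta2 differed by -0.20 and that of Myh11 by 0.16. Of the 8 markers 3 (Myh11, Mylk and Acta2) had an unadjusted limma p under 0.05, all towards DBA, where 12.6% of all genes did. None of the 8 passed an adjusted p of 0.05, and none was among the dimmest 25% of probe sets. Skeletal muscle markers went the opposite way, at 14.93 on DBA replicate 1 and 9.88 and 9.85 on the other 2 DBA arrays. The part of these cells in the cyclin values was not tested, and in whole tumours fewer cells of a type and less RNA per cell cannot be told apart.

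The remaining G1 genes differed little. Ccne1, encoding cyclin E1, which drives entry into S phase, read 7.99, 8.28 and 7.54 in the AKR cross against 7.63, 7.79 and 7.48 in the DBA cross (0.30, interval -0.19 to 0.79). Ccne2, its paralogue, read 4.88, 4.65 and 5.02 against 5.07, 5.26 and 5.03. The crosses did not overlap for Ccne2, but the probe set lay among the dimmest 8.2% and differed by only -0.27. E2f1, the activator of S phase genes, differed by 0.26 and 0.06 at its probe sets.

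**Figure D3:**
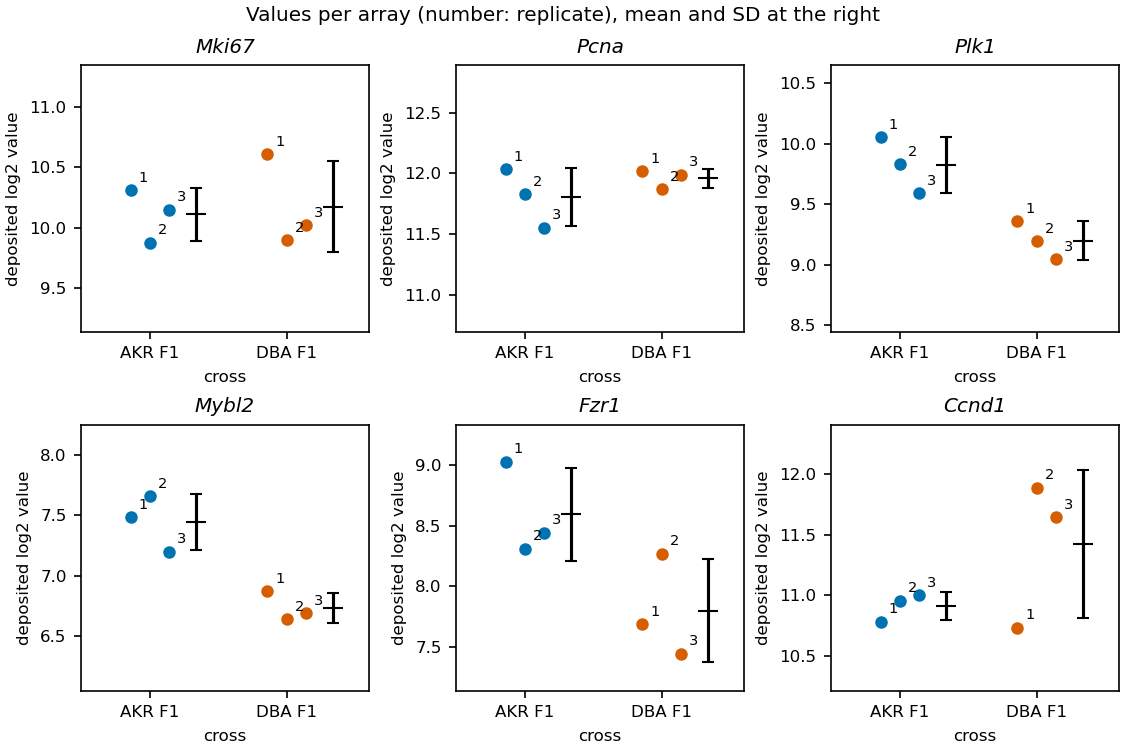
Deposited log2 values of 6 genes on each array (points, numbered by replicate) for AKR and DBA F1 tumours, with the mean and SD of the 3 arrays at the right of each cross; every vertical axis spans the same range in log2 units. Plk1, Mybl2 and Fzr1 show AKR above DBA, Mki67 and Pcna overlap, and in Ccnd1 only DBA replicates 2 and 3 stand apart.

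Differences of the licensing and helicase genes were small and did not pass the test. Cdt1, which loads the replicative helicase onto origins, had the largest of these: 9.66, 9.22 and 9.27 in the AKR cross against 9.26, 8.91 and 8.97 in the DBA cross (0.34, interval -0.06 to 0.74). AKR replicate 1 was highest for Cdt1 and DBA replicate 1 within the AKR range. A further bright Cdt1 probe set gave 0.29. The differences of Cdc6, the partner of Cdt1 in loading, and of Cdc45, which completes the active helicase, were 0.07 and 0.18. The 6 subunits of the MCM helicase spanned from -0.10 for Mcm4 to 0.28 for Mcm5 at their brightest probe sets, with Mcm2 at 0.12, Mcm3 at 0.22, Mcm6 at -0.03 and Mcm7 at 0.12. As deposited, 4 subunits lay higher in the AKR cross and 2 in the DBA cross, whereas after quantile or cyclic loess normalization all 6 lay higher in the AKR cross, with medians of 0.31 and 0.27.

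All 4 probe sets of Mcm7 had the higher mean in the AKR cross, by 0.12 to 0.36. At the dimmest of them the AKR arrays read 7.48, 7.42 and 7.38 and the DBA arrays 7.10, 7.01 and 7.10, without overlap (interval 0.10 to 0.61, limma adjusted p = 0.129). The 5 probe sets of Mcm3 ran from -0.09 to 0.30. The highest of these came from a dim probe set at 5.70, 5.76 and 5.68 against 5.51, 5.44 and 5.28.

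Genes of nucleotide supply gave no common direction. Rrm1 and Rrm2 encode the subunits of ribonucleotide reductase, which makes deoxynucleotides. Rrm1 differed by -0.02 and -0.03 at its probe sets. Rrm2 disagreed with itself: the brightest probe set read 10.45, 10.34 and 10.10 in the AKR cross against 10.51, 9.82 and 9.81 in the DBA cross (0.25), while the others differed by -0.31 and -0.35. On all 3 Rrm2 probe sets DBA replicate 1 was the highest array. Tk1, thymidine kinase of the salvage route, read 9.98, 9.37 and 9.44 against 9.36, 9.36 and 9.41, so AKR replicate 1 alone stood apart.

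Tyms, which makes thymidylate, was the only gene listed under G1 and S phase with an unadjusted limma p under 0.05 at its brightest probe set. Mybl2, whose product is made in S phase, was listed with the G2 and mitotic genes. The brightest Tyms probe set was a dim one. It read 5.34, 5.78 and 5.37 in the AKR cross against 5.07, 5.16 and 5.07 in the DBA cross (0.39, limma adjusted p = 0.173). All 3 Tyms probe sets lay among the dimmest 11.5% of probe sets, where a value can be mostly background. The other Tyms probe sets differed by 0.23 and 0.02.

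**Figure D4:**
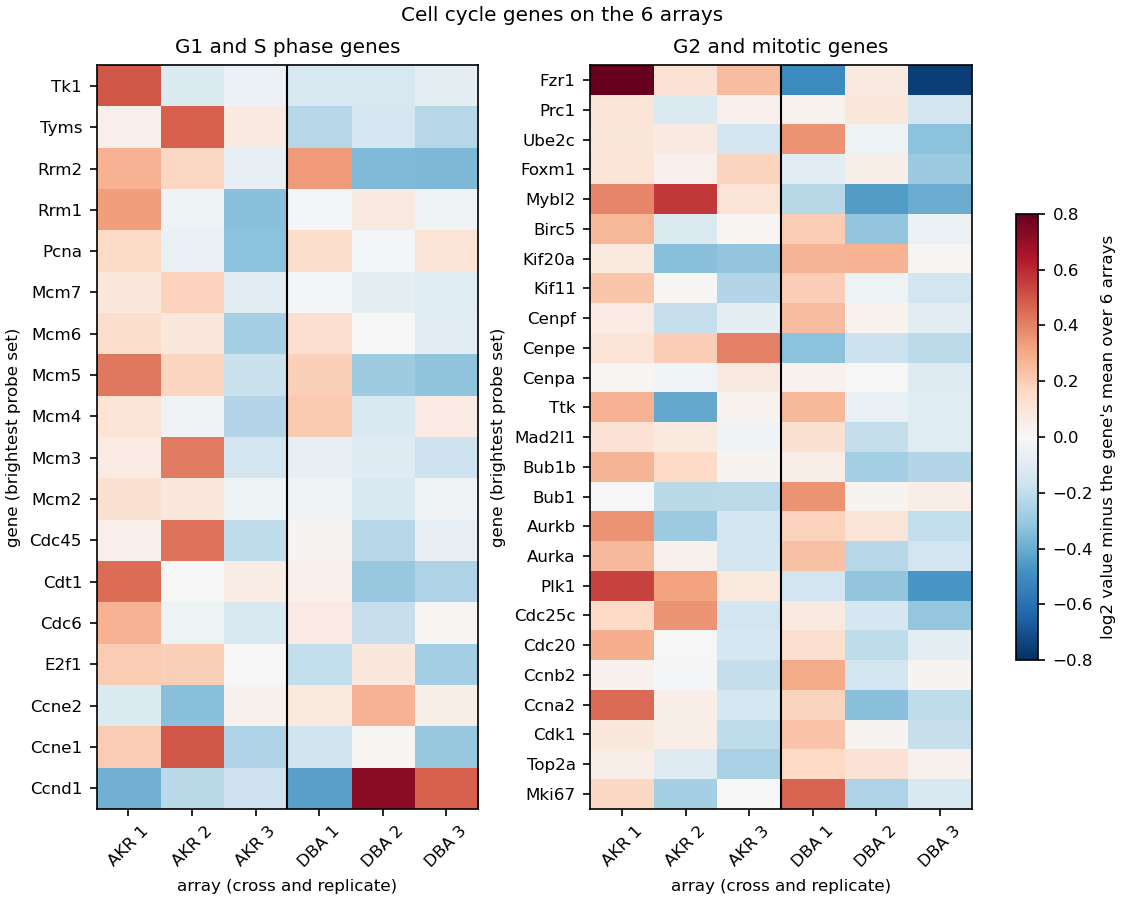
Log2 value of each gene's brightest probe set on each array minus that gene's mean over the 6 arrays (colour, red above and blue below the mean), with colours saturating at 0.8, G1 and S phase genes left and G2 and mitotic genes right and a line between the crosses. AKR replicate 1 and, among mitotic genes, DBA replicate 1 are mostly red, and no block of genes separates the crosses.

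In the mitotic group the arrays differed from each other more visibly than the crosses did. AKR replicate 1 gave the highest of the 6 values for 11 of 25 G2 and mitotic genes and DBA replicate 1 for 8, and neither was the lowest for more than 1. The array means of the 25 genes were 8.84, 8.63 and 8.58 in the AKR cross against 8.74, 8.54 and 8.45 in the DBA cross. For the 18 G1 and S phase genes they were 8.97, 8.91 and 8.68 against 8.80, 8.75 and 8.72, with AKR replicate 1 highest for 9 genes. Within the AKR cross the arrays thus ranged more widely than the 2 crosses' means lay apart, in both groups of genes. Without AKR replicate 1 the median of the G2 and mitotic genes was -0.02, and without DBA replicate 1 it was 0.19.

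**Figure D5:**
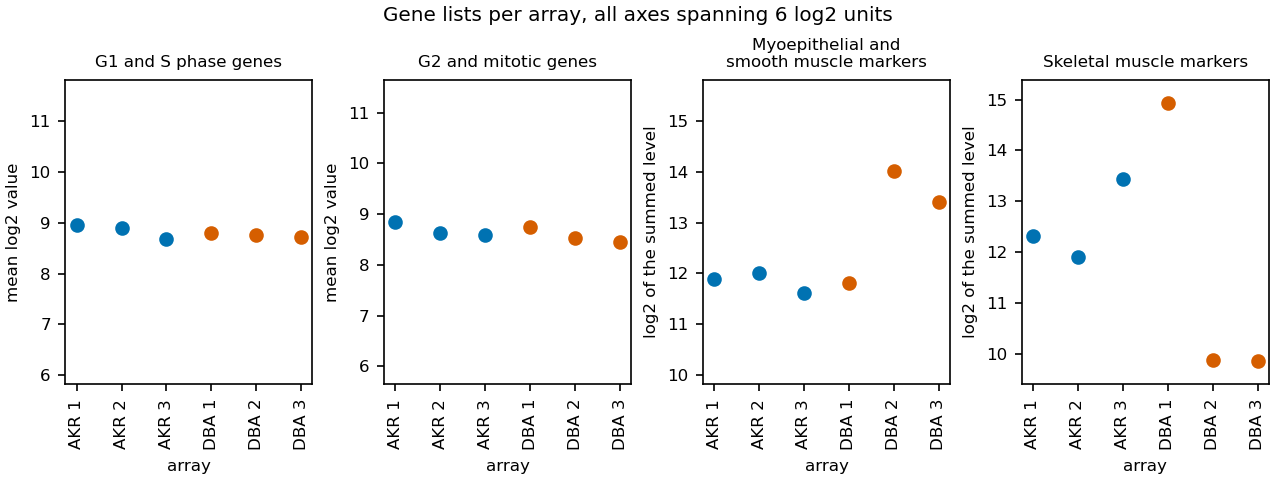
Mean log2 value of the G1 and S phase genes and of the G2 and mitotic genes, and log2 of the summed level of myoepithelial and smooth muscle markers and of skeletal muscle markers, on each of the 6 arrays (blue AKR, orange DBA). All axes span the same range in log2 units; the cell cycle means stay within 8.45 to 8.97, while skeletal muscle markers run from 9.85 to 14.93 and the high myoepithelial and smooth muscle sums on DBA replicates 2 and 3 come from contractile genes.

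The kinase and cyclins that start mitosis overlapped between the crosses. Cdk1, the mitotic kinase, read 10.29, 10.26 and 10.002 in the AKR cross against 10.43, 10.23 and 10.02 in the DBA cross (-0.04, interval -0.41 to 0.32). The cyclin partners of Cdk1 differed by 0.24 (Ccna2) and -0.11 (Ccnb2), and Cdc25c, the phosphatase that switches Cdk1 on, by 0.24. For all of these the values of the 2 crosses overlapped, and after quantile normalization the Cdk1 difference was 0.20.

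Plk1, a kinase of mitotic entry and spindle assembly, had the second smallest p among members. It read 10.05, 9.83 and 9.59 in the AKR cross against 9.36, 9.20 and 9.05 in the DBA cross. Every AKR array lay above every DBA array. The difference was 0.63 (SE 0.160, interval 0.24 to 1.01), or 1.54-fold, with a limma adjusted p of 0.11, which does not pass. Its size ran from 0.51 to 0.88 (with array weights) over 14 alternatives, and the limma adjusted p from 0.00322 (with array weights) to 0.396. The array weights rest almost wholly on AKR replicate 1. Under the other alternatives the lowest adjusted p of Plk1 was 0.0891, after cyclic loess normalization. The Aurora kinases, which act beside Plk1, did not follow it: Aurka differed by 0.10 and Aurkb by -0.06 at their brightest probe sets. Aurkb's chromosomal passenger partner Birc5, or survivin, differed by 0.11.

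Mybl2 had the smallest p of all members. B-Myb, its product, is both made in S phase and required for mitotic gene expression. The brightest Mybl2 probe set read 7.48, 7.66 and 7.20 in the AKR cross against 6.87, 6.64 and 6.69 in the DBA cross, again without overlap. The means were 7.45 ± 0.23 and 6.73 ± 0.12 (SD, n = 3 each), a 1.64-fold difference (log2 0.71, interval 0.35 to 1.08). Its limma adjusted p of 0.0934 passes 0.10 but not 0.05, and ran from 0.00264 (with array weights) to 0.374 over 13 alternatives. Apart from the array weights, the lowest was 0.0782, without AKR replicate 2 and DBA replicate 1. The dimmer Mybl2 probe set also separated the crosses, at 5.34, 5.58 and 5.30 against 5.13, 5.27 and 5.12, a difference of 0.23.

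Foxm1, which follows B-Myb at mitotic promoters, leaned the same way at 3 of 4 probe sets (0.22, 0.21 and 0.33), and none passed. At the middle one of these the crosses did not overlap, at 7.96, 7.95 and 8.01 against 7.82, 7.83 and 7.65. The fourth Foxm1 probe set, among the dimmest 1.9%, differed by -0.14. The genes with CHR letters in their promoters did not all share the direction of Mybl2 and Foxm1. As deposited, the 14 G2 and mitotic genes with CHR letters were divided 7 to 7, with Mki67, Top2a, Cdk1, Ccnb2, Ttk, Cenpf and Kif11 higher in the DBA cross. The division, AKR to DBA, was 13 to 1 after quantile normalization (Ttk at -0.15), 11 to 3 after cyclic loess normalization (Top2a, Ttk and Kif11) and 5 to 9 with arrays centred on their medians.

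Checkpoint and kinetochore genes were mixed. Bub1, a checkpoint kinase, read 7.92, 7.71 and 7.71 in the AKR cross against 8.28, 7.94 and 7.98 in the DBA cross (-0.29), without overlap, whereas its dim probe set gave 0.29 in the other direction, also without overlap. Bub1b, encoding the related BubR1, differed by 0.30 (interval -0.03 to 0.63), and Mad2l1 and Ttk, which act with them, by 0.11 and -0.07. Cenpa, the histone that marks centromeres, was the member with nearly equal values throughout, from 8.81 to 8.99 over the 6 arrays. Cenpf differed by -0.13. Cenpe, a kinetochore motor, read 4.38, 4.47 and 4.68 in the AKR cross against 3.94, 4.10 and 4.07 in the DBA cross (0.47, limma adjusted p = 0.118), but this probe set lay among the dimmest 2.0%.

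Among spindle and cytokinesis genes Kif20a had the largest difference. The spindle motor gene Kif11 differed by 0.00 at its brightest probe set, and the midzone bundler Prc1 by 0.02. Kif20a, a cytokinesis motor, read 7.04, 6.63 and 6.65 in the AKR cross against 7.24, 7.24 and 6.98 in the DBA cross. AKR replicate 1 overlapped the DBA arrays. The Kif20a difference of -0.38 had an unadjusted limma p of 0.0494 (adjusted p = 0.191) and was the 1 member difference towards DBA under 0.05.

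The factors that end mitosis parted from each other. Cdc20 activates the anaphase-promoting complex in mitosis, Fzr1 (Cdh1) activates it from late mitosis through G1, and Ube2c is its ubiquitin-conjugating enzyme. Cdc20 differed by 0.10, 0.16 and 0.27 at its 3 probe sets, and Ube2c by 0.01. Fzr1 read 9.03, 8.31 and 8.44 in the AKR cross against 7.69, 8.27 and 7.44 in the DBA cross, 1.74-fold higher in AKR (log2 0.80, SE 0.272, interval 0.15 to 1.44). The crosses were separated by a narrow gap, since DBA replicate 2 at 8.27 lay just under AKR replicate 2 at 8.31. This was the largest difference among the 43 members, and its limma adjusted p was 0.15 (0.00352 to 0.439 over 14 alternatives). With array weights, which rest almost wholly on AKR replicate 1, the difference was 1.33 and the limma adjusted p 0.00352. Under the other alternatives the lowest adjusted p was 0.121, among probe sets above the median level. Unlike most members, Fzr1 is active in G1 and quiescent cells.

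Beyond the members, 141 further cell cycle genes were measured. They came from lists of inhibitors, E2F and pocket proteins, kinases, replication, spindle, cohesion and anaphase-promoting complex genes. They include Fbxo31, which an older name matched to the listed Fbxo5. None passed an adjusted p of 0.05 by limma at its brightest probe set, which 0.0565% of all genes did. At an unadjusted p under 0.05 there were 10 of 141 towards AKR and 16 towards DBA, where 12.6% of all genes passed in each direction, and the median difference was -0.06. Pttg1, encoding securin, which holds separase inactive until anaphase, had the largest difference towards AKR of these at 10.90, 11.41 and 10.71 against 9.85, 9.74 and 9.80 (1.21, limma adjusted p = 0.0768). Its 3 probe sets ran from -0.17 to 1.21. Of 7 measured kinase inhibitor genes, 6 had the higher mean in the DBA cross (5 after quantile normalization), with a median of -0.27. Cdkn1a, encoding p21, read 8.88, 9.92 and 8.51 in the AKR cross against 8.54, 11.03 and 10.33 in the DBA cross (-0.86, interval -2.43 to 0.70), so that DBA replicates 2 and 3 stood highest, as they did for Ccnd1. Cdkn2a read 5.74, 5.86 and 5.83 against 5.87, 6.67 and 6.79 (limma adjusted p = 0.176), with the same pair of arrays highest.

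In the list of anaphase-promoting complex genes and regulators, 10 of 13 had the higher mean in the DBA cross (median -0.25). After quantile normalization 7 of 13 did (median -0.05). At an unadjusted limma p under 0.05 there were 4 towards DBA and 1 towards AKR (12.6% of all genes in each). That 1 was Fbxo31 (0.32), a different gene that entered in place of the listed Fbxo5 through an older name. The counts and medians of this list include Fbxo31. Cdc16 read 10.37, 9.78 and 10.19 in the AKR cross against 10.64, 10.52 and 10.72 in the DBA cross (limma adjusted p = 0.149). Every DBA array lay above every AKR array for Cdc16, the opposite order to the activator gene Fzr1. Among 38 other replication genes 24 had the higher mean in the DBA cross (18 after quantile normalization), and the origin recognition genes Orc4 (-1.11), Orc3 (-0.56) and Orc6 (-0.53) had the smallest p-values, with limma adjusted p of 0.109, 0.117 and 0.126. Other probe sets of Orc4 and Orc3 reached 0.05 and 0.00. The 40 other kinetochore, spindle and cytokinesis genes were divided 21 to 19, with a median of 0.01. The medians of the remaining lists were 0.03 for 12 pocket protein and E2F genes, 0.11 for 16 other cyclins, kinases and phosphatases, and -0.15 for 15 cohesion and condensin genes. Rbl2, encoding the pocket protein p130 of quiescent cells, read 7.48, 6.76 and 7.77 in the AKR cross and 8.52, 7.96 and 8.25 in the DBA cross (limma adjusted p = 0.132).

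The arrays carried the marker transcripts of mammary epithelium at similar levels, with a log2 summed level of 9 luminal markers between 14.60 and 15.00 in both crosses. Esr1 was the 1 luminal marker among the dimmest 25% of probe sets. Fibroblast markers were lowest on DBA replicate 2 (12.48, against 13.38 to 14.66 elsewhere), and adipocyte markers highest on DBA replicate 1 (12.45, against 9.19 to 9.93). T cell markers were between 10.54 and 10.88 in the AKR cross against 10.14 to 10.43 in the DBA cross. Of the 7 T cell markers, 4 had an unadjusted limma p under 0.05, all towards AKR, where 12.6% of all genes did. None passed an adjusted p of 0.05, and Cd8b1, 1 of the 4, was among the dimmest 25% of probe sets. Cd3d and Cd3g differed by 0.05 and -0.06. B and plasma cell markers ran from 9.10 to 9.26 in the AKR cross and from 9.94 to 10.56 in the DBA cross, but the markers did not move together. On DBA replicate 2 the sum came mostly from Pou2af1 (10.09), without which it was 8.73, below the 9.02 to 9.17 of the AKR arrays, while DBA replicates 1 and 3 were at 10.07 and 9.40. Pax5, Cd79a and Blk had the higher mean in the AKR cross, by 0.42, 0.39 and 0.10. Endothelial markers stayed between 10.63 and 10.96, and macrophage markers between 12.19 and 13.30. Of 8 endothelial markers, 3 had an unadjusted limma p under 0.05. Plvap (0.47) and Eng (0.49) lay towards AKR and Emcn (-0.37) towards DBA, where 12.6% of all genes passed in each direction. None of the 8 passed an adjusted p of 0.05. Red cell markers ran from 9.22 to 10.27. Of 6 measured, 5 had the higher mean in the AKR cross, and only Alas2 (-1.15) had an unadjusted limma p under 0.05. The part of these cell types in the cell cycle values was not tested. Without AKR replicate 2 and DBA replicate 1, which stood apart in earlier work on these data, no member passed an adjusted p of 0.05 either. Then 14 member probe sets had an unadjusted limma p under 0.05 (18.2%, against 24.9% of all probe sets). Of these, 11 lay towards AKR and 3 towards DBA, where 12.5% and 12.4% of all probe sets did.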

How the data were processed

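Expression was measured in 6 tumour samples, 3 per cross, each on 1 array; groups came from the source names in the labels, and replicate numbers follow accession order. The deposited values are log2 signals, a scale read from their range of 3.65 to 14.73; the submitters' processing notes name MAS5 and also RMA, without a version or a role, so which of them made the values is unknown. Array medians lay between 7.52 and 7.57. No detection calls were used, so dim values can be background. After removal of 64 Affymetrix control probe sets, 22626 were tested with limma 3.58.1 (R 4.3.3; lmFit, eBayes, two-sided, Benjamini-Hochberg). With 3 arrays per cross an exact permutation test cannot give p below 0.1, so none is reported. Genes were named through the platform annotation, where 20380 probe sets had 1 symbol, 691 several and 1555 none. Listed symbols outside the members without a probe set were looked up by older names, which matched 1 (Fbxo31 for Fbxo5, a different gene). A gene stands for its probe set with the highest mean. All 43 measured members were named; of the other cell cycle lists, genes came from the 3 with the smallest p per list, and cell type markers are given as sums. The members and lists were chosen with earlier results of these data known. Promoters were matched by symbol. The test was checked on simulated data with independent noise and changes larger than any member difference. That check does not cover differences of the members' size. Alternatives were quantile and cyclic loess normalization, median centring, a level filter, a trended robust prior, an adjusted p of 0.10, array weights, gene means and leaving out arrays. Python 3.11.15 with matplotlib 3.10.9 drew the figures.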

Additional observations from a re-analysis of the deposited data

How the results depend on the processing

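No member probe set passed an adjusted p of 0.05 under 13 of 15 alternatives. At an adjusted p of 0.10, 1 passed (Mybl2), and with array weights 28 did, Mybl2, Plk1, Fzr1 and Ccnd1 among them. The weights did not converge and put 38.19 on AKR replicate 1 against 0.12 to 1.18 on the other arrays, and 9969 of all probe sets passed with them, so these calls rest on that array. The count of member probe sets at an unadjusted p under 0.05 was 8 as reported (10.4% of members, against 26.1% of all probe sets). It was 15 after quantile normalization (22.5% of all), 13 after cyclic loess normalization (23.2%), 2 among probe sets brighter than the median (28.4%), 40 with array weights (51.9% of members against 54.2%), 5 with 1 mean value per gene (25.9%), 14 without AKR replicate 2 and DBA replicate 1 (24.9%), and 5 to 11 when each array was left out (12.1% to 29.6%). The count of member probe sets whose crosses did not overlap was 12 as reported (15.6% of members, against 39.2% of all), 22, 21 and 4 under the first 3 of these (33.8%, 33.2% and 37.2% of all), 36 without both arrays (61.3%), and 15 to 30 with 1 array left out (42.0% to 54.3%), where fewer values make non-overlap more frequent. With both directions counted together, the members' share was below that of all probe sets in all of these settings. Towards AKR alone, the share at an unadjusted limma p under 0.05 was not always below. Of 77 member probe sets, 36 lay towards AKR and 4 towards DBA with array weights, against 31.7% and 22.5% of all. Without both arrays 11 and 3 did, against 12.5% and 12.4%. The median of the G2 and mitotic genes was 0.21 after quantile normalization, 0.26 with array weights, 0.21 without both arrays and -0.022 to 0.19 with 1 array left out, and that of the G1 and S phase genes stayed between 0.09 and 0.25 under all 14 alternatives. Mki67 turned towards AKR after quantile (0.17) and cyclic loess (0.15) normalization, with array weights (0.14) and without both arrays (0.27), and ran from -0.20 to 0.15 with 1 array left out. Pcna turned after quantile (0.067) and cyclic loess (0.053) normalization and with array weights (0.053), and Top2a after quantile normalization (0.022) and with 1 mean per gene (0.12); the cause was not tested. With 3 arrays per cross and no detection calls, small differences and those of dim probe sets cannot be resolved.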
